A study of Mus musculus with 8 samples.

Results

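The family described here is the group of calcineurin-dependent NFAT transcription factors of the mouse, Nfatc1, Nfatc2, Nfatc3 and Nfatc4, with the NFAT-binding protein gene Nfatc2ip and the calcineurin-binding protein gene Cabin1. Its members are these 6 of the 25127 genes with a tested probe, and every non-control probe that carries one of the 6 names was read, which gave 11 of the 55681 probes. A probe was tested where 4 or more arrays showed it well above background, which held for 10 of these 11 and for 36493 probes in all. The other one, a probe of Nfatc2, was well above background on 1 tacrolimus array and 1 control array. RNA came from kidneys of CD-1 mice, which are outbred. In the TAC group the mice received tacrolimus at 1 mg/kg each day for 28 days, and in the CTL group they received physiological serum. Each group had 4 arrays. The labels give no genetic change, age or sex, and do not say whether each array is a separate animal, and a p-value here covers only the spread among the arrays of a group, which may be technical. Whole kidney was taken, so a smaller number of cells of a type and less RNA in each cell cannot be told apart.

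NFAT proteins rest in the cytoplasm in a phosphorylated state. When calcium rises in the cell, the phosphatase calcineurin removes these phosphates and the proteins enter the nucleus, where they act with partners such as AP-1. Tacrolimus, bound to the immunophilin FKBP12, blocks calcineurin and thereby this step, which is how it suppresses T cells, and the drug is also known for its toxicity to the kidney. That block acts on the proteins, whereas the arrays measured only the level of the mRNAs. The comparison addresses whether the mRNAs of the factors themselves differ in kidneys under the drug.

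Each probe is a 60-base oligonucleotide that reads one stretch of a transcript, and probes of 1 gene can behave differently. The sequences of 3 probes that read inside their transcripts rather than at the end are shown, because 2 of them lay near or below the detection limit and the third belongs to the gene with the most probes. Those of Nfatc2 and Nfatc3 are placed in the part that encodes the DNA-binding Rel homology region from general knowledge of these proteins, since no coding annotation was used here. All are written 5′ to 3′ as in the scanner files, with no base marked.
Nfatc2, probe A_52_P628171, mm9, minus strand, chr2:168361757-168361816: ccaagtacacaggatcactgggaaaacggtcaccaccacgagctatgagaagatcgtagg
Nfatc3, probe A_52_P333419, mm9, plus strand, chr8:108615965-108616024: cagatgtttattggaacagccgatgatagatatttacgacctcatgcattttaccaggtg
Cabin1, probe A_52_P93422, mm9, minus strand, chr10:75188365-75188424: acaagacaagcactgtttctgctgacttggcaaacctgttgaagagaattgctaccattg

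The remaining probes, on the same assembly, lie on chromosome 18 from 80845439 to 80845498 and from 80803664 to 80803723 for Nfatc1, on chromosome 2 from 168301974 to 168302033 for Nfatc2, and on chromosome 8 from 108643263 to 108643322 and from 108654316 to 108654375 for Nfatc3. Those of Nfatc4, Nfatc2ip and Cabin1 lie on chromosome 14 from 56452542 to 56452601, on chromosome 7 from 133526654 to 133526713, and on chromosome 10 from 75109055 to 75109114. Exon and UTR annotation of this assembly was not used here. The array annotation gives the Nfatc1 probe at 80845439 under transcript variant 1 and the probe at 80803664, 41775 bases away, under variant 2.

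By their barcodes, all 8 arrays were on 1 slide. A part of the barcode, read here as the row on the slide, differed between the TAC and CTL arrays. An effect of the row cannot be told apart from one of tacrolimus. The 75th percentile of the processed intensity was 674 to 1061 on TAC arrays and 792 to 1049 on CTL arrays, and no spot was saturated. The mean local background was 19.3 to 20.5 on TAC arrays and 21.8 to 22.1 on CTL arrays, so that it did not overlap between the groups. Its part in the values of dim probes was not tested. The number of arrays limits the precision. The 5 proximal tubule markers and the 4 markers of the thick ascending limb and distal tubule were well above background on every array. Some lists of markers were uneven between the groups. The list of the thick ascending limb and distal tubule had a score of 0.19 to 0.60 on TAC arrays and -0.14 to 0.24 on CTL arrays. That score rested mostly on Calb1, which differed by 1.24 (TAC minus CTL, log2). Slc12a3, Umod and Slc12a1 differed by 0.34, 0.12 and -0.15. The urothelium score was 2.18, -0.64, -0.63 and 3.78 on TAC arrays 1 to 4, and -0.21 to 0.17 on CTL arrays. Of its 4 tested genes, Upk2 was well above background on only 2 arrays of each group. None of the 6 endothelial, 5 podocyte, 4 collecting duct or 5 B cell markers was higher at an unadjusted p below 0.05, and of the B cell markers Cd22 was lower. Of 8 macrophage markers, 7 were higher at that threshold (limma), where 6.96% of all genes were higher. At an adjusted p below 0.05 (limma), 0 of the 8 passed. Their list score was 0.75 to 1.67 on TAC arrays and -0.33 to 0.36 on CTL arrays. The adipocyte score was 2.53 to 6.22 on TAC arrays and -1.11 to 2.61 on CTL arrays. All 5 adipocyte markers were well above background on the 4 TAC arrays, but on the CTL arrays Plin1 was so on 0, Adipoq on 1, Cidec on 2 and Retn on 3, so the CTL scores rest in part on values below background and no count of changed markers is given. A list score is the mean log2 level of the list's genes after the CTL mean of each gene is taken off.

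No probe of the NFAT family differed between the groups beyond the test's threshold. A level is a log2 intensity from which the array's own 75th percentile was taken off, and a difference is TAC minus CTL. Of the 10 tested probes, 0 passed an adjusted p of 0.05 (limma, Benjamini-Hochberg over all 36493 probes) and 0 were under an unadjusted p of 0.05. Among all tested probes 0.101% were called and 14.3% were under the unadjusted threshold, so that 0 of 10 lies close to the background for the call. Adjusted p values of the 10 ranged from 0.375 to 0.964. The mean was higher on TAC arrays in 4 probes and lower in 6, against 14303 higher and 22190 lower over the whole table. Their median difference was -0.09 and the median over all tested probes was -0.06. The median size of the difference was 0.13 for the family and 0.16 for all probes.

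**Figure D1:**
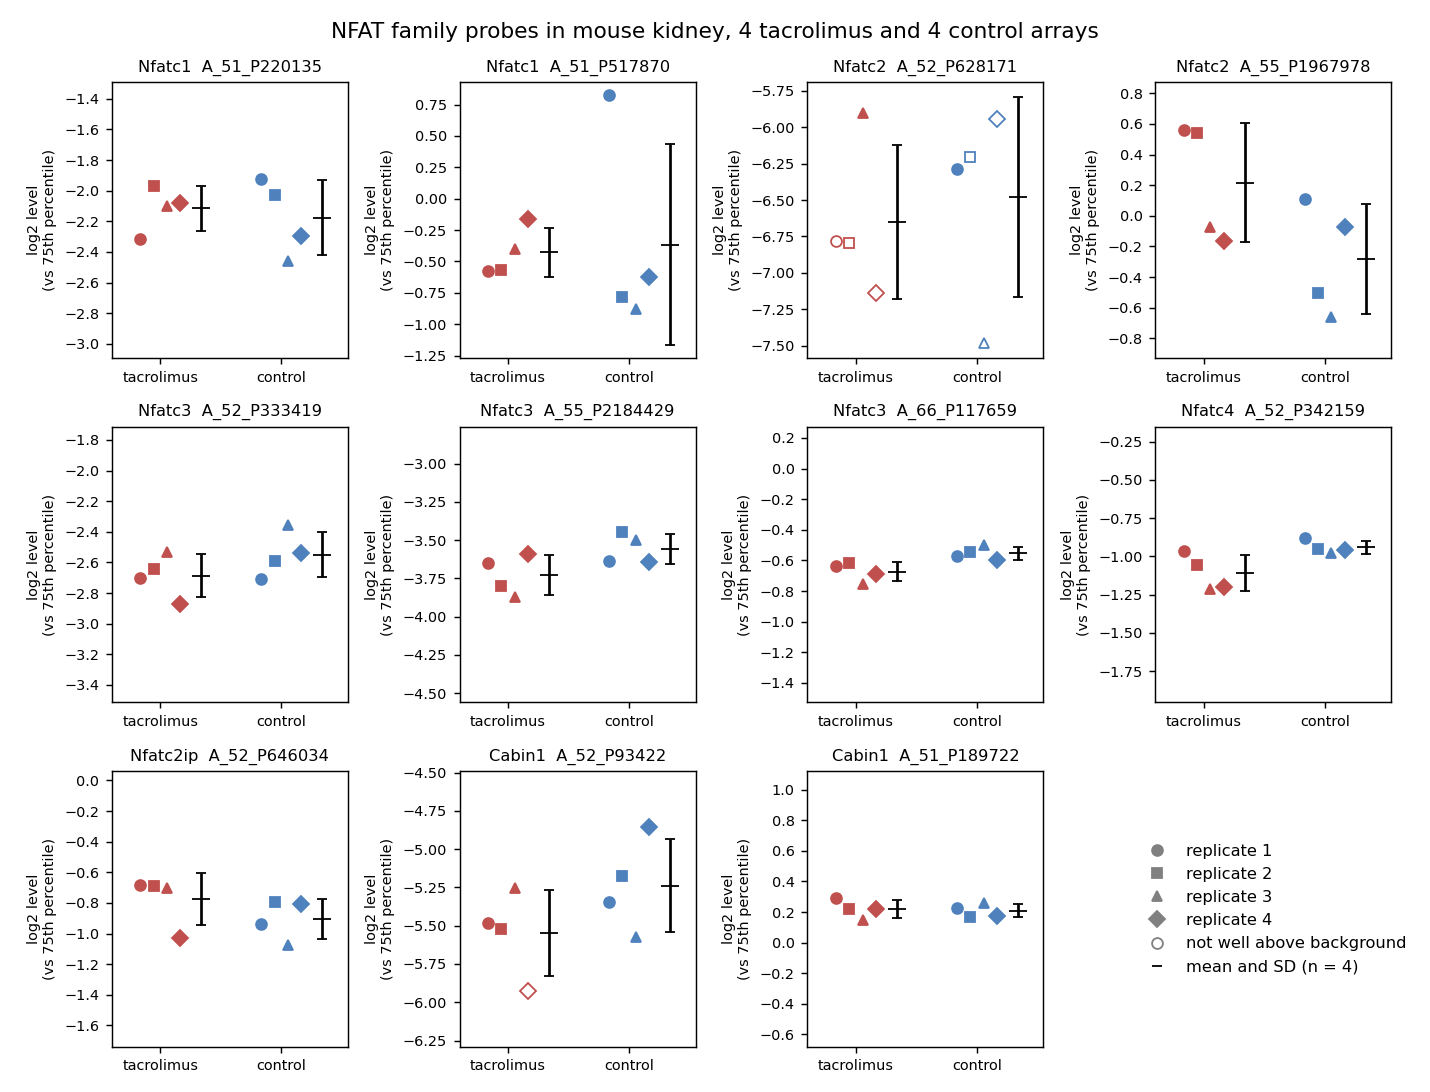
Log2 level (relative to the 75th percentile of the array) of each of the 11 probes on the 4 tacrolimus and 4 control arrays, with a symbol for each replicate number, open where the probe was not well above background, and the group mean with its SD beside the points. The groups overlap in 10 of the 11 panels, the exception being Nfatc3 probe A_66_P117659. Axes differ between panels.

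Nfatc2 (NFAT1), a factor of T cells that drives cytokine genes there, had the largest fitted difference of the family at its end probe A_55_P1967978. That probe was at 0.56, 0.54, -0.07 and -0.17 on TAC arrays 1 to 4, against 0.11, -0.51, -0.66 and -0.07 on CTL arrays 1 to 4. TAC replicates 1 and 2 lay above every other array, while TAC replicates 3 and 4 lay among the controls. The means were 0.21 ± 0.39 on TAC arrays and -0.28 ± 0.36 on CTL arrays (SD, n = 4 each), a difference of 0.50 ± 0.24 (SE), or 1.41-fold. It was not called (limma adjusted p = 0.375), and the exact two-sided permutation test gave p = 0.143. The 95% interval reached from 0.972-fold to 2.05-fold, so that a doubling of the mRNA lies just inside it. In size this difference exceeded that of 89.9% of all tested probes. With the adipocyte marker level of each array as a covariate, whose CTL values lay in part below background, it was 0.87 (limma adjusted p = 0.597). That level was -3.17 to 0.52 on TAC arrays and -6.80 to -3.09 on CTL arrays. It overlapped between the groups only through CTL replicate 2, so that this fit separates covariate and group poorly.

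The other Nfatc2 probe, A_52_P628171, whose sequence is printed above, lay near the detection limit. Its levels were between -7.14 and -5.90 on TAC arrays and between -7.48 and -5.94 on CTL arrays. The difference of -0.17 had an interval of -1.06 to 0.71, so that this probe gives no usable comparison, and no fold is given.

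T cell markers were also uneven between the arrays and in a similar order to the Nfatc2 end probe. Of the 10 T cell markers, 9 were on the array and tested, each was well above background on at least 3 arrays of each group, and 4 were higher and none lower at that unadjusted threshold, under which 6.96% of all genes were higher and 8.02% lower. The score of the list was 0.96, 0.79, 0.35 and 0.24 on TAC arrays 1 to 4, against 0.55, -0.11, -0.24 and -0.20 on CTL arrays 1 to 4. TAC replicate 1, TAC replicate 2, CTL replicate 1 and TAC replicate 3 were, in this order, the 4 highest arrays in both measures. This parallel was seen after the values were known, and the part of T cells in the Nfatc2 level was not tested.

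Nfatc1 (NFAT2), which is required for heart valve formation and for osteoclasts and which has several isoforms with different ends, was not called at either probe. The probe annotated to variant 2, A_51_P517870, was at -0.58, -0.56, -0.40 and -0.16 on TAC arrays 1 to 4, against 0.83, -0.78, -0.88 and -0.63 on CTL arrays 1 to 4. CTL replicate 1 lay above all other arrays, and each of the other controls lay below all 4 TAC arrays. With all arrays the difference was -0.06 ± 0.36 (SE), with a 95% interval of 0.546-fold to 1.69-fold (limma adjusted p = 0.954, exact permutation p = 1). Without CTL replicate 1 it was 0.34 (limma unadjusted p = 0.0418, adjusted p = 0.410), so that this array decides the sign. The spread of this probe within groups was 0.58, the widest of the 10 tested probes.

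The probe annotated to variant 1, A_51_P220135, was at -2.31, -1.97, -2.10 and -2.08 on TAC arrays 1 to 4, against -1.92, -2.03, -2.46 and -2.30 on CTL arrays 1 to 4. The groups overlapped across nearly their whole range. The difference was 0.06 ± 0.14 (SE), with an interval of 0.835-fold to 1.30-fold, an adjusted p of 0.873 (limma) and an exact permutation p of 0.743. It was -0.03 without CTL replicate 3. CTL replicate 1 was the highest array at this probe too, close to TAC replicate 2. Of 5 genes of the osteoclast and macrophage programme of Nfatc1, 1 was higher at the unadjusted threshold, where 6.96% of all genes were. This was Dcstamp, at 1.15, while Ctsk and Calcr differed by 0.70 and 0.22 and Acp5 and Oscar by -0.10 and -0.27. The list score was -0.02 to 0.75 on TAC arrays and -0.05 to 0.06 on CTL arrays.

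Nfatc3 (NFAT4), a factor of thymocytes and smooth muscle, was measured by 3 probes over 38351 bases, and all had a lower mean on TAC arrays. The end probe A_66_P117659 was at -0.64, -0.61, -0.75 and -0.69 on TAC arrays 1 to 4, against -0.57, -0.55, -0.50 and -0.60 on CTL arrays 1 to 4. All 4 TAC arrays lay below all 4 CTL arrays, the only such separation among the 10 tested probes of the family. Among all tested probes, groups did not overlap in 9.3%, and TAC was the lower group in 5.4%, so that 1 of 10 is near the background. The means were -0.67 ± 0.06 on TAC arrays and -0.55 ± 0.04 on CTL arrays (SD, n = 4 each).

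That difference of -0.12 ± 0.08 (SE) was not called (limma adjusted p = 0.511), while the exact permutation test gave p = 0.0286, the smallest it can give. The limma fit moves the spread of a quiet probe towards that of all probes, and the SD of this probe within groups was 0.05. A reduction to below 0.812-fold lies outside the 95% interval. The inner probe A_52_P333419, printed above, ranged from -2.87 to -2.53 on TAC arrays and from -2.71 to -2.36 on CTL arrays. It differed by -0.14 ± 0.11 (limma adjusted p = 0.596, exact permutation p = 0.286). The middle probe A_55_P2184429 ranged from -3.87 to -3.59 on TAC arrays and from -3.64 to -3.45 on CTL arrays, and differed by -0.17 ± 0.10 (limma adjusted p = 0.455, exact permutation p = 0.114). With the adipocyte covariate these 2 probes stood at 0.05 and -0.36, with opposite signs. That covariate overlapped between the groups only through CTL replicate 2. Of 7 markers of fibroblasts, pericytes and smooth muscle, 3 were higher and none lower at the unadjusted threshold, under which 6.96% of all genes were higher. These were the fibroblast genes Pdgfra, Dcn and Lum, while the smooth muscle genes Acta2, Myh11 and Tagln did not pass. The list had a list score of 0.20 to 0.86 on TAC arrays and -0.10 to 0.18 on CTL arrays, and the part of these cells in the Nfatc3 levels was not tested.

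Nfatc4 (NFAT3), known from cardiac hypertrophy, had 1 probe, A_52_P342159, which was at -0.97, -1.06, -1.21 and -1.20 on TAC arrays 1 to 4, against -0.88, -0.95, -0.98 and -0.96 on CTL arrays 1 to 4. The groups overlapped only through TAC replicate 1, which lay just above the lowest control. The means were -1.11 ± 0.12 on TAC arrays and -0.94 ± 0.04 on CTL arrays (SD, n = 4 each). The difference of -0.17 ± 0.09 (SE), or 0.889-fold, was not called (limma adjusted p = 0.421, exact permutation p = 0.0571). Its 95% interval reached from 0.771-fold to 1.03-fold.

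Nfatc2ip encodes NIP45, a protein with SUMO-like domains that was found as a partner of NFAT in the activation of the interleukin-4 gene in T cells. Its probe A_52_P646034 was at -0.68, -0.69, -0.70 and -1.03 on TAC arrays 1 to 4, against -0.94, -0.80, -1.08 and -0.81 on CTL arrays 1 to 4. Of the TAC arrays, 3 lay above all controls, and TAC replicate 4 lay among the lowest arrays. The difference was 0.13 ± 0.12 (SE), with an interval of 0.910-fold to 1.31-fold (limma adjusted p = 0.630, exact permutation p = 0.2). Leaving out TAC replicate 4 gave 0.21, and leaving out CTL replicate 3 gave 0.07.

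Cabin1, also called Cain, encodes a large nuclear protein that binds and inhibits calcineurin, represses MEF2 factors and belongs to the HIRA histone chaperone complex. Its end probe A_51_P189722 varied little, at 0.29, 0.22, 0.15 and 0.22 on TAC arrays 1 to 4, against 0.22, 0.17, 0.26 and 0.18 on CTL arrays 1 to 4. The groups overlapped fully. The difference was 0.01 ± 0.08 (SE), with a 95% interval of 0.889-fold to 1.14-fold (limma adjusted p = 0.964, exact permutation p = 0.8). Its sign was negative without CTL replicate 2 (-0.0018) and without TAC replicate 1 (-0.01). With each array scaled to its median the difference was -0.04, and in the deposited value table it was -0.03.

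The inner Cabin1 probe A_52_P93422, printed above, was dim, and 3 of the 4 TAC arrays and all 4 CTL arrays were well above background. It ranged from -5.93 to -5.26 on TAC arrays and from -5.57 to -4.85 on CTL arrays, so that the groups overlapped. It differed by -0.31 ± 0.19 (limma adjusted p = 0.473, exact permutation p = 0.229). The difference was -0.18 without TAC replicate 4 or without CTL replicate 4, and -0.04 with normexp background correction, which adds an offset to the signal.

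**Figure D2:**
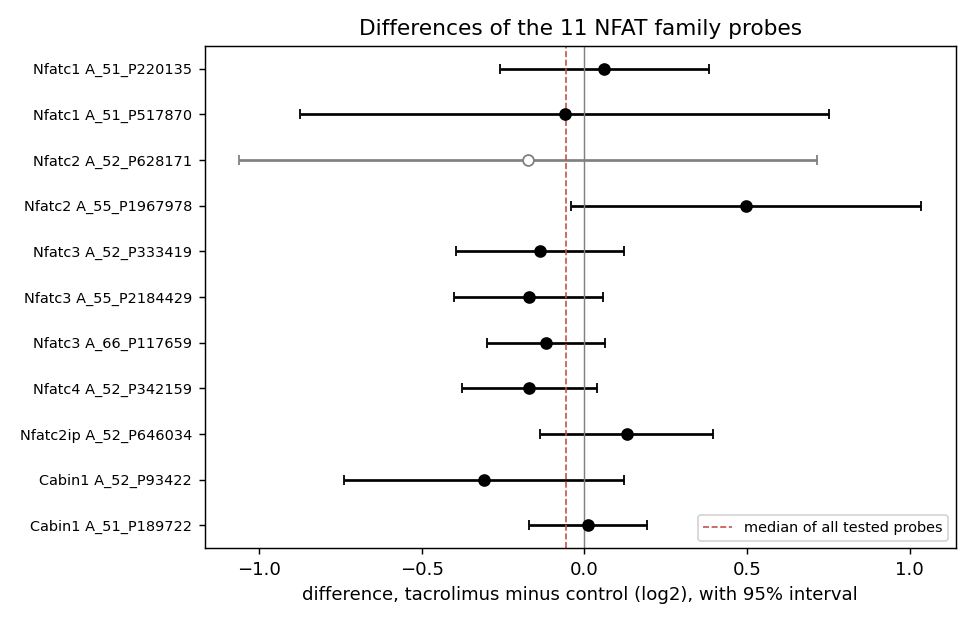
Difference (tacrolimus minus control, log2) of each of the 11 probes with its 95% interval from the limma fit, the open grey point being the Nfatc2 probe near the detection limit, and the dashed line the median of all tested probes. Every interval includes 0, and the farthest point from 0 is Nfatc2 probe A_55_P1967978 at 0.50.

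**Figure D3:**
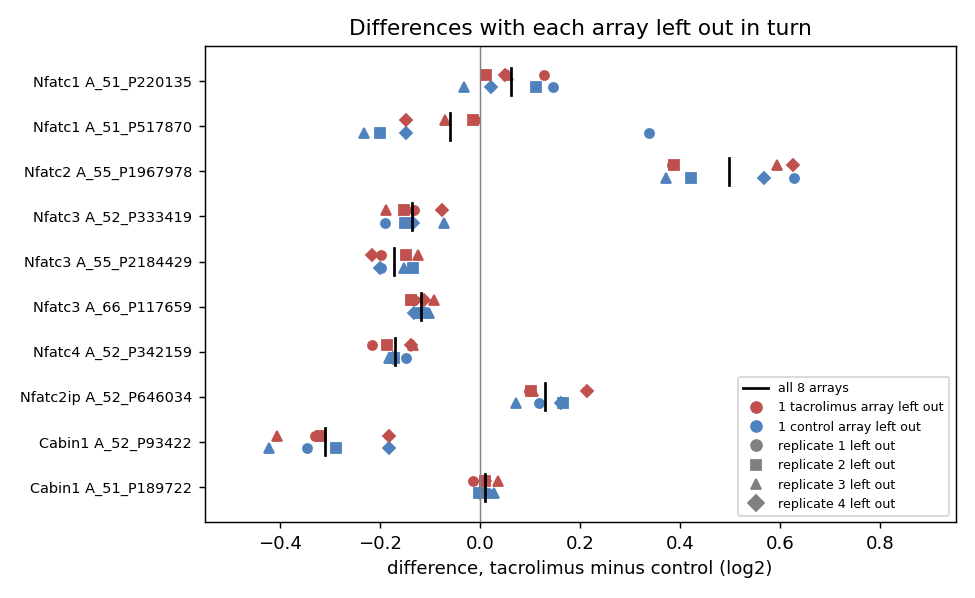
Differences (tacrolimus minus control, log2) of the 10 tested probes when each array is left out in turn, in red for tacrolimus arrays and blue for control arrays, with a symbol for the replicate number and a black bar for all 8 arrays. The Nfatc1 probe A_51_P517870 moves to 0.34 without CTL replicate 1, and Nfatc2 probe A_55_P1967978 stays between 0.37 and 0.63.

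Around the factors, genes of the calcineurin and NFAT pathway were followed through 6 lists, each gene at its brightest tested probe. None of their 73 distinct tested genes was called (limma, adjusted over all probes), where 0.123% of all genes were, and 16 were under an unadjusted p of 0.05, where 15% of all genes were (6.96% higher and 8.02% lower). The median difference over all genes was -0.05. Values below are differences in log2 with their SE, and the adjusted p is that of limma.

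Of 13 genes for calcineurin subunits and regulators, 11 were tested, 1 was higher and 2 were lower at the unadjusted threshold, and the list's median was -0.03. Ppp3cc, a catalytic subunit of calcineurin, was at 1.34 ± 0.37 on TAC arrays and 2.04 ± 0.33 on CTL arrays (SD, n = 4 each), a difference of -0.70 ± 0.22 (adjusted p = 0.231). Myoz1, a calcineurin-binding protein of muscle, differed by -0.56 ± 0.15 and Akap5, which anchors calcineurin at membranes, by 0.54 ± 0.23. Chp1, a calcineurin B homologue, differed by -0.23 ± 0.10. With normexp Myoz1 differed by -0.20 and Akap5 by 0.34, and Akap5 by 0.36 without CTL replicate 2. The testis subunit gene Ppp3r2 and the muscle gene Myoz2 stayed below that detection limit on all 8 arrays.

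The kinases and scaffolds that keep NFAT in the cytoplasm had a median of -0.06, with 1 of 13 higher and 1 lower at the unadjusted threshold. Casein kinase 1 epsilon, Csnk1e, differed by 0.38 ± 0.13, and Dyrk1a, which primes NFAT for export, by -0.27 ± 0.09. The glycogen synthase kinases Gsk3a and Gsk3b, which rephosphorylate NFAT in the nucleus, differed by -0.19 ± 0.09 and -0.17 ± 0.08, and by -0.12 and -0.11 with quantile normalization. Adjusted p values of these 4 lay between 0.250 and 0.387. Of 15 genes for calcium entry and release, with a median of -0.01, 2 were higher and 0 were lower. These were the inositol trisphosphate receptors Itpr2, at 0.51 ± 0.13 (adjusted p = 0.163), and Itpr3, at 0.42 ± 0.13. The store-operated channel gene Orai3 differed by -0.22 ± 0.10.

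Nuclear partners of NFAT had a median of 0.12, with 3 of 18 higher and 1 lower at the unadjusted threshold. Runx1, which acts with NFAT in T cells, was at -3.33 ± 0.39 on TAC arrays and -4.48 ± 0.37 on CTL arrays (SD, n = 4 each), a difference of 1.14 ± 0.24 (adjusted p = 0.0973). The AP-1 subunit Junb differed by 0.89 ± 0.26 and Fosb by -0.26 ± 0.11, and Gata3, a factor of T cells and of the distal nephron, by 0.26 ± 0.10. With normexp Runx1 differed by 0.61, Junb by 0.45 and Fosb by -0.16.

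Known NFAT targets could be followed only in part. Of 21, 11 were tested, and Il2, Il3, Il4, Il5, Il13, Csf2, Cd40lg, Ctla4, Pdcd1 and Egr3 were well above background on at most 3 arrays. Of the 11, 3 were higher and 1 was lower at the unadjusted threshold, and the median was 0.49. That median is the value of Ifng (0.49 ± 0.44), which did not pass. Ctsk and Fasl did not pass either, at 0.70 and 0.71. Rcan1, Trpc6, Acp5 and Nppb differed by -0.08, -0.01, -0.10 and -0.19 and also did not pass. Egr2, a zinc finger factor induced by NFAT in T cells, was at -1.73 ± 0.66 on TAC arrays and -4.06 ± 0.54 on CTL arrays (SD, n = 4 each), a difference of 2.33 ± 0.37 (adjusted p = 0.0669). The cytokine gene Tnf differed by 1.02 ± 0.36 and Il2ra, a chain of the interleukin-2 receptor, by 1.05 ± 0.40. Both were well above background on 4 TAC arrays and 3 CTL arrays. With normexp background correction and the 75th percentile they differed by 0.36 and 0.35, in the deposited table by 0.46 and 0.45, and without CTL replicate 3 Il2ra differed by 0.67. Ptgs2, the inducible cyclooxygenase, differed by -1.20 ± 0.49, and by -0.46 with normexp, where Egr2 differed by 1.49. The macrophage scores given above were higher on all TAC arrays than on all CTL arrays, whereas the T cell scores overlapped between the groups through CTL replicate 1, and the part of these cells in the target values was not tested.

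Of 7 genes listed for the HIRA complex of Cabin1, histone chaperones and histones, 1 was higher at the unadjusted threshold and the median was 0.05. This was Asf1b, a histone chaperone of dividing cells, with 1.10 ± 0.25 (adjusted p = 0.120), and 0.70 with normexp. Its relative Asf1a differed by -0.13 ± 0.08, Hira itself by -0.14 ± 0.14 and the histone gene H3f3a by -0.07 ± 0.11. Hira differed by -0.04 without TAC replicate 1, by -0.24 without TAC replicate 4 and by -0.29 as the mean of its probes (limma unadjusted p = 0.0203, adjusted p = 0.249).

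**Figure D4:**
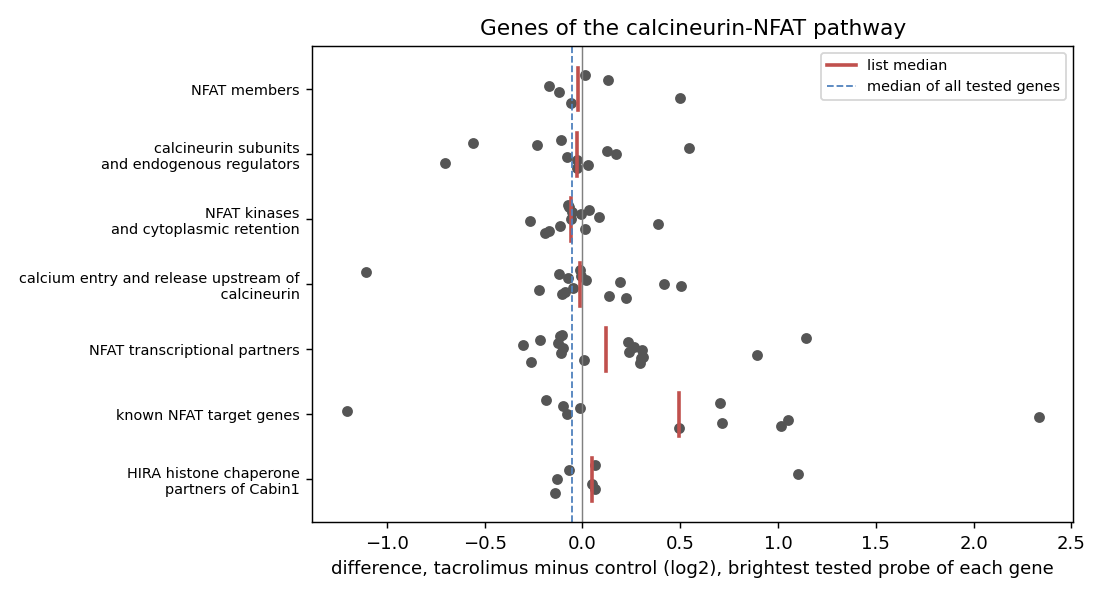
Difference (tacrolimus minus control, log2) of each tested gene in the NFAT family and in 6 lists around it, with the list's median in red and the median of all tested genes as a dashed line. Most genes lie near 0, Egr2 is the farthest to the right at 2.33, and the targets have the highest list median, 0.49.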

How the data were processed

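Each scanner file holds the spots of 1 array as Feature Extraction 10.7.3.1 wrote them, per the file headers: a processed intensity with the background subtracted and spatially detrended, raw intensities and detection flags. The deposited value table holds log2 values, which equalled the quantile-normalized raw median intensity within 5e-09; limma is named in the submitters' processing notes, with settings not given in the sources used here. From the processed intensity, log2 values were taken and centred on the array's 75th percentile over 59305 non-control spots, outlier spots left out and spots of a probe averaged. Probes well above background on at least 4 of 8 arrays were fitted with limma 3.58.1 in R 4.3.3 (two-sided, no covariate) and called at an adjusted p under 0.05 over all probes. Single values also had exact permutation tests. The fit was tested on simulated data.

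Members and gene lists were chosen with earlier results of these data known. Besides single markers and the remaining tested NFAT targets, the rule named every member probe and up to 4 genes of a list with the lowest p. For each member it named the 2 genes with the most similar pattern. A gene that this rule would name is not reported here. Positions are mm9, and current symbols came from RefSeq (28026 probes matched). Alternatives were other normalizations, background corrections, filters, probe summaries and variance models, array weights, a covariate, a replicate block and arrays left out. Whether replicate numbers pair the samples is not known, and deviations of same-numbered arrays correlated between -0.0026 and 0.15.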

Additional observations from a re-analysis of the deposited data

Results flagged for a closer look

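In groups of 4 arrays, an array was marked when its gap to the nearest other exceeded Dixon's 95% critical share of the group's range, which chance alone gives in about 1 in 20 groups. Of 22 groups (11 probes in TAC and in CTL), 2 had such an array. At Nfatc1 probe A_51_P517870, CTL replicate 1 was at 0.83 with the next control at -0.63, a gap of 0.851 of the range. The same array was at -1.92, the highest control, at the other Nfatc1 probe. At Nfatc2ip probe A_52_P646034, TAC replicate 4 was at -1.03 with the next TAC array at -0.70, a gap of 0.941 of the range.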

How the results depend on the processing

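The count of called NFAT family probes was 0 as reported and 0 under each of the 22 alternatives run (limma, lowest adjusted p 0.206, at Nfatc2 with array weights), with 0 to 2 of them under an unadjusted p of 0.05. Over the 10 tested probes, 200 of 211 values kept their sign, and 6 probes kept it under every alternative that could test them. The sign turned for Cabin1 probe A_51_P189722 with the median in place of the 75th percentile (-0.041), in the deposited table (-0.027), with the mean of a gene's probes (-0.15), without CTL replicate 2 (-0.0018), without TAC replicate 1 (-0.014) and without CTL replicate 2 and TAC replicate 4 together (-0.0018). For Nfatc1 it turned with the mean of its probes (0.00034) and, at A_51_P517870, without CTL replicate 1 (0.34), and at A_51_P220135 without CTL replicate 3 (-0.033) and with the adipocyte covariate (-0.065). With that covariate Nfatc3 probe A_52_P333419 stood at 0.048. Leaving out 1 array gave -0.014 to 0.036 at A_51_P189722, -0.23 to 0.34 at A_51_P517870 and -0.033 to 0.15 at A_51_P220135. Among pathway genes H3f3a turned with quantile normalization (0.0081), normexp and quantile normalization (0.015), the deposited table (0.011) and without TAC replicate 3 (0.0016), over a range of -0.11 to 0.0016 with 1 array left out.

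No pathway gene was called as reported. Normexp with the 75th percentile called 3 (Runx1, Egr2 and Asf1b), and the deposited table, the filter on all 8 arrays, the intensity trend with robust estimation and array weights called 1 each, Egr2. Calls over all probes numbered 37, and leaving out 1 array gave 6 to 52. They numbered 306 with normexp and the 75th percentile, 125 with normexp and quantile normalization, 162 in the deposited table, 115 with the filter on all 8 arrays, 57 with 1 probe per gene, 62 with the mean of a gene's probes, 222 with the intensity trend, 247 with array weights, 9 without CTL replicate 2 and TAC replicate 4 together and 0 with the adipocyte covariate (limma, 3023 under an unadjusted p of 0.05). The causes of these differences were not tested. The share of calls over all probes that were higher on TAC arrays was 89.2% as reported, 70.4% with normexp and quantile normalization and 77.8% in the deposited table. Scaling to the median moved the median of all probes to -0.11. Whether the numbers pair the arrays is not known, though 3 of 4 matched best with their own number. The fit with a replicate block, given only here, called 43 probes and 0 members, with Nfatc2 at a limma adjusted p of 0.310. Dim probes such as A_52_P628171 and A_52_P93422 limit what can be said of Nfatc2 and Cabin1 away from the transcript end.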

Other observations

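The genes with the pattern most like each member, by Pearson correlation over the 8 arrays after each group's mean was taken off, are given as a description, since the highest values among 15659 genes are large by selection. Each gene was taken at its brightest tested probe, which was A_51_P517870 for Nfatc1 and A_66_P117659 for Nfatc3. The Nfatc1 pattern there rested largely on CTL replicate 1, at 0.83 with the next control at -0.63. For Nfatc1 the most similar genes were Mtr (0.98) and Fabp9 (0.98), for Nfatc2 Snai2 (0.98) and Nav1 (0.97), and for Nfatc3 Cenpu (0.98) and Donson (0.97). For Nfatc4 they were Herc6 (0.99) and Acvr2a (0.98), for Nfatc2ip Samd14 (0.97) and Pole2 (0.96), and for Cabin1 Cd8a (0.96) and Dip2c (0.96). Between 20 genes, for Cabin1, and 91 genes, for Nfatc4, had a correlation over 0.9.

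Probes of 1 gene did not always vary together over the 8 arrays. Among the 3 Nfatc3 probes, all well above background on the 8 arrays, the Pearson correlation was 0.73 between A_55_P2184429 and A_66_P117659, 0.45 between A_52_P333419 and A_66_P117659 and 0.10 between A_52_P333419 and A_55_P2184429. It was 0.60 between the Nfatc1 probes, 0.12 between the Nfatc2 probes and -0.53 between the Cabin1 probes. The values for Nfatc2 and Cabin1 each include a dim probe, so they say little about the transcripts. A_52_P628171 of Nfatc2 was well above background on 1 TAC and 1 CTL array, and A_52_P93422 of Cabin1 on 3 TAC and 4 CTL arrays.

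The core letters of NFAT binding sites, GGAAA, were searched on both strands in RefSeq promoters of GRCm38.p6, each from 250 bases before to 50 after a start. They were found in 5 of 7 promoters of 5 members, and in 61.3% of all 32851 promoters. Nfatc1, on chromosome 18, was left out of the members, a filter not applied to the whole set. Nfatc2 had 4 matches over 2 promoters, Nfatc4 had 3 in 1 promoter, and Cabin1 had 0.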
